A study of Mus musculus with 12 samples.

Results

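The collagen genes are described here as every gene of the arrays whose symbol has the form Col, number, a, number. The rule uses the symbol alone. They are 44 of the 19938 genes with a probe set of exactly 1 symbol, read by 46 probe sets, since Col6a5 and Col6a6 have 2 each. By the structures their chains build, 11 were grouped as fibrillar, 10 as basement membrane and 23 as others.

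Collagens are triple-helical proteins whose chains are modified and folded in the endoplasmic reticulum, exported and then assembled outside the cell. Fibrillar collagens form the rope-like fibrils of the dermis, type IV collagen forms the sheet under epithelia, and types VII and XVII anchor basal keratinocytes to that sheet. Other collagens coat fibrils, form beaded filaments or short-chain networks, or span the cell membrane. In skin most fibrillar collagen is made by dermal fibroblasts, while keratinocytes are known for making types IV, VII and XVII.

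The 12 whole-transcript microarrays hold 4 groups of 3 samples of untreated mouse skin cells. The first 6 arrays hold bulge cells, which are stem cells of the hair follicle, taken from dorsal skin at 18 to 19 days of age and sorted as CD34+ with bright alpha6 integrin. All of these mice carried a Venus reporter of the clock gene Per1. Cells with bright Venus are the clock-positive group and cells with dim Venus the clock-negative group, and each sample pools about 20 mice. As the labels of the clock-negative samples name the Venus-high gate too, the groups were taken from the titles and the design text. The other 6 arrays hold basal cells of the interfollicular epidermis (IFE), the skin surface between follicles, of mice 1 year old. They were wild type (WT) or lacked Bmal1 in the epidermis (KO), and each sample comes from 5 mice. Bmal1, whose gene symbol is Arntl, is an activator of the clock. The promoter that drives the deletion is not given in the sources used here. The labels do not say whether the samples of a group were prepared apart, so p-values measure only the spread between these pools.

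Values are deposited log2 intensities, on which a difference of 1 is a 2-fold change. The number of arrays limits the precision. Array medians ran from 6.82 to 7.01 in the bulge set and from 7.75 to 7.80 in the IFE set, and levels are tested only within a set. Per1 was 0.51 ± 0.07 (SE) higher on the log2 scale in clock-positive than in clock-negative cells (limma adjusted p = 0.000195). Arntl read 9.27, 9.47 and 9.34 on the WT arrays and 9.85, 9.60 and 9.55 on the KO arrays, which is not lower. Where its probes lie relative to the deleted part was not analysed here, so this reading checks no label. Nr1d1, a gene driven by Bmal1, fell by 3.98 on the log2 scale in the arrays labelled KO (adjusted p = 1.08e-05), while the clock genes Dbp (−1.83, adjusted p = 0.0663) and Per1 (−0.51, adjusted p = 0.844) did not pass there. Between the bulge groups Dbp was 0.28 higher in clock-positive cells (adjusted p = 0.00469), and Nr1d1 did not pass (0.08, adjusted p = 0.298). Krt5, a keratin of basal cells, had group means of 12.53 and 12.52 in the bulge set and 13.62 and 13.59 in the IFE set.

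Between clock-positive and clock-negative bulge cells, the study asked how follicle stem cells with a bright and a dim clock reporter differ. Of the 44 collagens, 10 were higher and 23 lower in clock-positive cells at an adjusted p under 0.05 in limma, and 11 passed in neither direction. Over all 13956 genes tested, 45.2% were higher and 18.3% were lower. All 3 clock-positive values lay above the clock-negative ones in 10 collagens and below them in 21, beside 50.1% and 19.1% of all genes. The collagens that rose were led by Col12a1 (2.03-fold), Col18a1 (1.71-fold), Col6a1 (1.61-fold) and Col4a2 (1.54-fold). As deposited, the falls ran from 0.21 (Col4a3) to 0.47 (Col26a1) and the rises from 0.34 (Col5a2) to 1.02 (Col12a1) on the log2 scale. The median change of the 44 was −0.22, beside 0.15 for all genes tested.

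The deposited values of the bulge set lean towards higher calls among the genes tested, which leave out the dimmest 30%. Both this filter and the scaling bear on that. With no filter on dim genes, 31.5% of all genes were higher and 27.9% lower, and the collagens stayed at 10 and 23. Quantile normalization called 18.9% of all genes higher and 19.5% lower, and cyclic loess 20.5% and 20.2%, with the median of all genes at −0.01 and 0.00. Of the 10 collagens called higher, quantile normalization called 6 and cyclic loess 8 (9 with Col8a1, which was gained). Those 2 are called the other scalings below. The 6 called higher under each of 4 scalings (as deposited, median-centred and the 2 others) were Col12a1, Col18a1, Col6a1, Col4a2, Col17a1 and Col5a2. They are 13.6% of the collagens, beside 16.9% of all genes. In the lower direction 19 collagens (43.2%) were called under all 4, beside 11.2% of all genes. The median of the 44 collagens was −0.19 after quantile normalization and −0.16 after cyclic loess, below that of all genes in both.

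**Figure D1:**
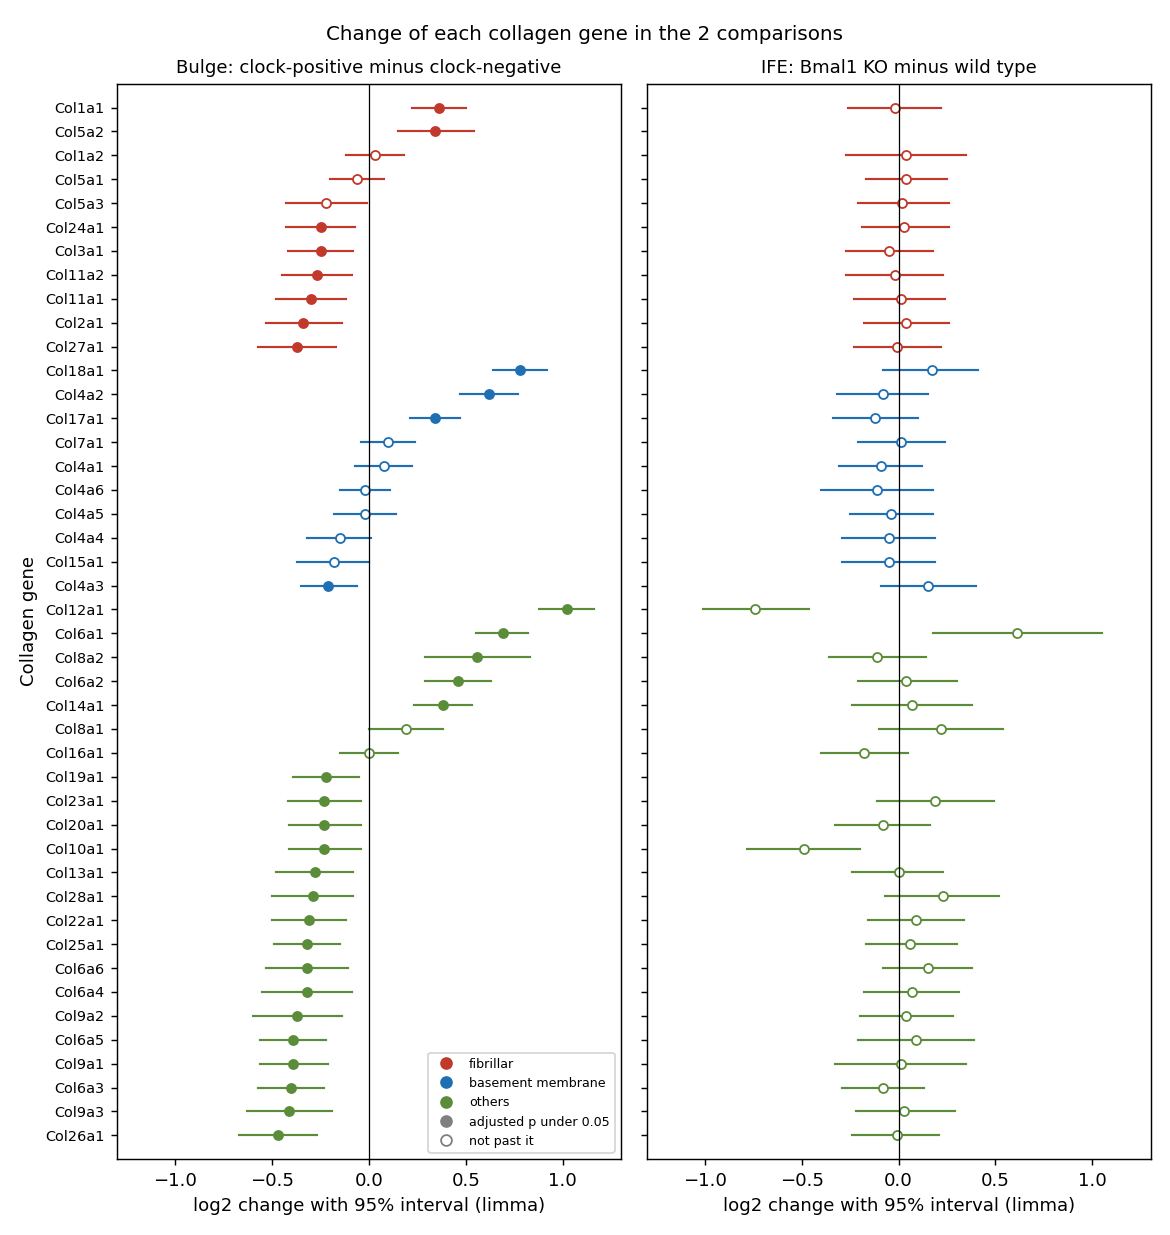
Log2 change of each collagen gene with its 95% interval from limma, by class, in bulge cells (left, clock-positive minus clock-negative) and in basal IFE cells (right, Bmal1 KO minus wild type); filled points have an adjusted p under 0.05. In the bulge set 10 points are filled to the right of 0 and 23 to the left, and in the IFE set none is filled; Col5a2 and Col19a1 were too dim to be tested there.

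Of the basement membrane collagens, 3 of 10 rose in clock-positive cells, 1 fell, and 6 did not pass the test, beside 45.2% and 18.3% of all genes. The counts were also 3 and 1 under both other scalings, beside 18.9% and 19.5% of all genes after quantile normalization and 20.5% and 20.2% after cyclic loess. Their median change was 0.03 as deposited, but −0.13 after quantile normalization and −0.11 after cyclic loess. Col18a1 encodes type XVIII collagen, a heparan sulfate proteoglycan of basement membranes whose end can be cut off as endostatin. It read 9.05, 8.99 and 8.95 in the clock-positive samples and 8.28, 8.23 and 8.16 in the clock-negative ones. All 3 clock-positive values lay well above the clock-negative ones, and the change was 0.78 ± 0.06 (SE, n = 3 per group, adjusted p = 8.88e-06). In bulk samples such as these, fewer cells of a type and less RNA per cell cannot be told apart.

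Col4a1 and Col4a2 encode the 2 chains of the main type IV collagen, and are neighbours on the genome with no protein-coding gene between them. Their promoter windows overlap by 78 bases. Col4a2 read 8.43, 8.38 and 8.56 in clock-positive and 7.88, 7.80 and 7.83 in clock-negative cells, a rise of 0.62 ± 0.07 (adjusted p = 5.85e-05) with no overlap. Col4a1 read 7.79, 7.81 and 7.91 against 7.75, 7.82 and 7.71. Its groups overlapped, its change was 0.08 ± 0.07 (adjusted p = 0.312), and it was −0.08 after cyclic loess. The change of Col4a2 exceeded that of Col4a1 by 0.54 ± 0.06 (SE over the samples), given as a description, since the pairs of chains compared here were chosen after their values were seen.

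Col4a3 and Col4a4, whose chains join that of Col4a5 in the kidney's filter, were not higher in clock-positive cells. Col4a3 read 7.0, 7.07 and 7.13 in clock-positive and 7.21, 7.35 and 7.26 in clock-negative cells, a fall of 0.21 on the log2 scale (adjusted p = 0.0204). Col4a4 read 7.17, 7.23 and 7.15 against 7.22, 7.46 and 7.33 (−0.15 ± 0.07, adjusted p = 0.0836). Only the former passed, and in Col4a4 the groups overlapped. Col4a5 and Col4a6 encode the chains that build a second type IV network under the epidermis. Col4a5 read 7.66, 7.64 and 7.66 against 7.56, 7.80 and 7.67, and Col4a6 read 7.42, 7.37 and 7.35 against 7.39, 7.39 and 7.42. Both changes were −0.02, with 95% intervals from −0.18 to 0.14 and from −0.15 to 0.11. Col15a1, the multiplexin related to Col18a1, had a change of −0.18 (adjusted p = 0.0748).

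Of the collagens that hold keratinocytes to the basement membrane, Col17a1 encodes the membrane-spanning collagen of hemidesmosomes, known for its part in keeping hair follicle stem cells. It read 11.91, 11.88 and 11.89 in clock-positive and 11.59, 11.55 and 11.51 in clock-negative cells. The groups lay apart, and the rise was 0.34 ± 0.06 (adjusted p = 0.000903), or 0.22 after cyclic loess (adjusted p = 0.00647). Col7a1, the chain of the anchoring fibrils, read 8.99, 9.05 and 9.03 against 8.84, 9.0 and 8.93. Its groups overlapped, and its change of 0.10 ± 0.06 (adjusted p = 0.199) became −0.16 after cyclic loess (adjusted p = 0.127).

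**Figure D2:**
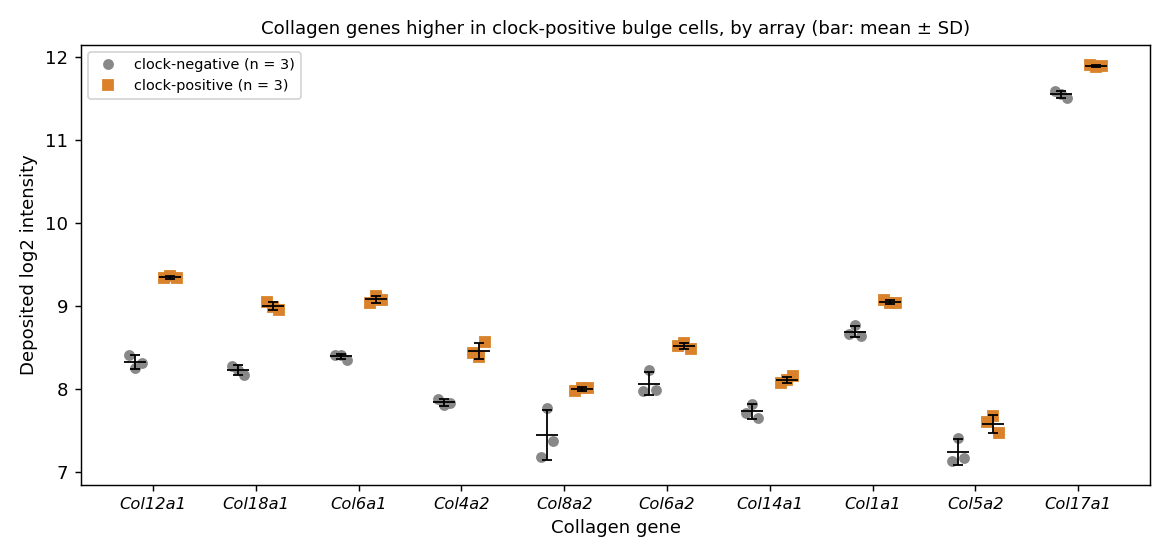
Deposited log2 intensity of the 10 collagen genes called higher in clock-positive bulge cells, with each array as a point and the mean ± SD of 3 samples as bars. In each of the 10 the 3 clock-positive arrays (orange squares) lie above the 3 clock-negative arrays (grey circles), by the widest margin in Col12a1 and with the widest spread among clock-negative arrays in Col8a2 (SD 0.30).

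Of the fibrillar collagens, 2 of 11 rose, 6 fell and 3 did not pass the test, beside 45.2% higher and 18.3% lower of all genes. Their median change was −0.25, beside 0.15 for all genes. After quantile normalization 1 rose and 7 fell (all genes 18.9% and 19.5%), and after cyclic loess 1 and 6 (20.5% and 20.2%). Col1a1 and Col1a2 encode the 2 chains of type I collagen, the main protein of the dermis. Col1a1 read 9.07, 9.04 and 9.03 in clock-positive and 8.66, 8.77 and 8.64 in clock-negative cells, a rise of 0.36 ± 0.06 (adjusted p = 0.00101) with no overlap. That call is lost under other scalings, with 0.10 after quantile normalization (adjusted p = 0.285) and 0.10 after cyclic loess (adjusted p = 0.304). Col1a2 read 7.83, 7.81 and 7.74 against 7.69, 7.87 and 7.72, an overlapping pair of groups with a change of 0.03 (adjusted p = 0.693) that became −0.12 after cyclic loess. The change of Col1a1 exceeded that of Col1a2 by 0.33 ± 0.03.

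Col3a1, the chain of type III collagen that joins type I in stretchable tissue, went the other way. It read 7.36, 7.31 and 7.41 in clock-positive and 7.49, 7.76 and 7.59 in clock-negative cells, a fall of 0.25 on the log2 scale (adjusted p = 0.0162). Its neighbour on the genome, Col5a2, a chain of the type V collagen that starts fibrils, read 7.60, 7.67 and 7.46 against 7.13, 7.41 and 7.17. That is a rise of 0.34 ± 0.09 (adjusted p = 0.00733), and the groups did not overlap in either gene. Of the partners of Col5a2 in type V, Col5a1 had a change of −0.06 and Col5a3 of −0.22 (adjusted p = 0.419 and 0.0648). The cartilage fibril chains Col2a1, Col11a1 and Col11a2 and the minor fibrillar chains Col24a1 and Col27a1 all fell, by 0.25 (Col24a1) to 0.37 (Col27a1) on the log2 scale.

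Of the other 23 collagens, 5 rose, 16 fell and 2 did not pass the test, beside 45.2% higher and 18.3% lower of all genes. Their median change was −0.28, beside 0.15 for all genes. After quantile normalization 2 rose and 13 fell (all genes 18.9% and 19.5%), and after cyclic loess 5 and 13 (20.5% and 20.2%). The FACIT collagens sit on the surface of fibrils. Col12a1, the chain of type XII, read 9.34, 9.36 and 9.33 in clock-positive and 8.41, 8.25 and 8.31 in clock-negative cells. It had the greatest rise of the 44 members, 1.02 ± 0.06 (adjusted p = 1.42e-06), and 0.76 under both other scalings. Col14a1, the related chain of type XIV, read 8.07, 8.10 and 8.15 against 7.71, 7.82 and 7.65. Its rise of 0.38 ± 0.07 (adjusted p = 0.000958) kept its call after cyclic loess (adjusted p = 0.0321) and lost it after quantile normalization (adjusted p = 0.0559). Col16a1 had a change of 0.00, or −0.24 after cyclic loess with an adjusted p of 0.039. Col19a1, Col20a1 and Col22a1 fell, by 0.22, 0.23 and 0.31, but Col19a1 stood at −0.03 under both other scalings.

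Type VI collagen forms beaded filaments from the chains of Col6a1 and Col6a2 and a further chain, from Col6a3, Col6a4, Col6a5 or Col6a6. Col6a1 read 9.04, 9.12 and 9.07 in clock-positive and 8.41, 8.41 and 8.35 in clock-negative cells, a rise of 0.69 ± 0.06 (adjusted p = 1.39e-05). Col6a2 read 8.51, 8.55 and 8.48 against 7.97, 8.22 and 7.99, a rise of 0.46 ± 0.08 (adjusted p = 0.000728). In both genes the groups lay apart, though the call on Col6a2 is lost after quantile normalization (0.20, adjusted p = 0.113) and cyclic loess (0.22, adjusted p = 0.0716). The genes of that further chain all fell. Col6a3 read 6.75, 6.62 and 6.74 against 6.98, 7.23 and 7.09, a fall of 0.40 (adjusted p = 0.00157), and the change of Col6a1 exceeded that of Col6a3 by 1.08 ± 0.10. Col6a5 read 6.94, 6.96 and 6.96 against 7.18, 7.45 and 7.39, and fell by 0.39. Its second probe set also read lower in all 3 clock-positive samples, from 5.50 to 5.70 against 5.90 to 5.92. Col6a4 and Col6a6 each fell by 0.32, with overlapping groups in Col6a4, which stood at −0.16 after cyclic loess (adjusted p = 0.162). The second probe set of Col6a6 read 5.59, 5.86 and 5.69 against 5.85, 6.20 and 6.05, so its groups overlapped.

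Col6a1, Col6a2 and Col18a1 lie near each other on chromosome 10, with no protein-coding gene between Col6a2 and Col6a1 and 2 between Col6a1 and Col18a1 in the RefSeq order of genes. As these 3 neighbours all rose as deposited, the 250 bases before their RefSeq starts are shown from GRCm38.p6, 5′ to 3′ in the direction of transcription. Capitals mark CCGCCC, the reverse complement of GGGCGG, the core of the GC box that Sp1 factors bind.
Col18a1, chr10:77166531-77166780, minus strand: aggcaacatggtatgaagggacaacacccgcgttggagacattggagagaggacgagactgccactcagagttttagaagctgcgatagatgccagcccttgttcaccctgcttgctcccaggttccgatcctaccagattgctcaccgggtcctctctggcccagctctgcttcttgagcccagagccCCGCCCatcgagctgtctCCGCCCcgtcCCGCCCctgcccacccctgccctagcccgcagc
Col6a1, chr10:76726045-76726294, minus strand: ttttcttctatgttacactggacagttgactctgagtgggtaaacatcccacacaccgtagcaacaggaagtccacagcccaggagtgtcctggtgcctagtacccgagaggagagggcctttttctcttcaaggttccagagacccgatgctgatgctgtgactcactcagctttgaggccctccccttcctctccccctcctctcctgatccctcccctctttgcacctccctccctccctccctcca
Col6a2, chr10:76623631-76623880, minus strand: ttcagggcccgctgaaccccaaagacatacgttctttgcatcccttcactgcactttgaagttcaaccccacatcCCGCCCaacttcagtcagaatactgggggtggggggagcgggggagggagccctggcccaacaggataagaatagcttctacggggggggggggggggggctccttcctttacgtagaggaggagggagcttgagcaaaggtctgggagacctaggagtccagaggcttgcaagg
Col18a1 has 3 such motifs, whose first bases lie at −61, −43 and −33 counted from the start, with −1 the base just before it. Col6a2 has 1, at −175, and Col6a1 has none in this window. The share of G and C was 62.0% for Col18a1, 56.0% for Col6a1 and 59.2% for Col6a2.

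RefSeq promoter windows of 300 bases (250 before and 50 after the start) were matched for 35 of the 44 collagen genes, in 38 windows. GGGCGG on either strand was in 23 of them (60.5%), beside 35.7% of all 32851 windows. The E-box CACGTG, which CLOCK and BMAL1 bind, was in 0 of the 38, beside 7.15% of all windows. The D-box TTANGTAA, which Dbp binds, was in 0, beside 2.32%. Both strands were searched, no motif contains another, and these counts say only which letters stand in these windows.

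The network-forming chain Col8a2, known from the cornea's basement membrane, read 7.97, 8.01 and 8.01 in clock-positive and 7.18, 7.77 and 7.37 in clock-negative cells. It rose by 0.56 ± 0.12 (adjusted p = 0.00303), and by 0.40 after quantile normalization, which missed the threshold (adjusted p = 0.0627). Its partner Col8a1 had a change of 0.19 ± 0.08 (adjusted p = 0.0679), with overlapping groups. The 3 genes of type IX collagen, a cartilage FACIT, all fell. Col9a1 read 6.58, 6.65 and 6.64 against 6.90, 7.19 and 6.94, and fell by 0.39. Col9a3 read 7.82, 7.93 and 7.81 against 8.04, 8.49 and 8.26, and fell by 0.41, while Col9a2 fell by 0.37. The groups lay apart in each of the 3.

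The greatest fall was that of Col26a1, a small collagen with an EMI domain. It read 7.57, 7.76 and 7.65 in clock-positive and 7.96, 8.31 and 8.13 in clock-negative cells, a change of −0.47 ± 0.09 (adjusted p = 0.00155). The membrane-spanning chains Col13a1, Col23a1 and Col25a1 fell by 0.28, 0.23 and 0.32. Col28a1 fell by 0.29, but stood at −0.08 under both other scalings. Col10a1, the network chain of growth-plate cartilage, fell by 0.23 with overlapping groups and stood at −0.13 under both other scalings.

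Among the members, the direction went with the brightness of the probe set. Of the 31 collagens with a mean intensity under 8 over the 6 bulge arrays, 3 rose and 19 fell, with a median change of −0.23. Of the 13 at 8 or above, 7 rose and 4 fell, with a median of 0.34. All genes show part of this: those between 6 and 7 had a median change of −0.21, those between 7 and 8 of 0.11, and those between 8 and 9 of 0.25. Between 7 and 8 the 25 collagens had a median of −0.22. Between 8 and 9 the 12 collagens had a median of 0.23, close to that of all genes there. Shares of all genes called under 8 and at 8 or above were not computed, so the counts of rises and falls there stand without a background. The part of brightness in the falls was not tested.

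**Figure D3:**
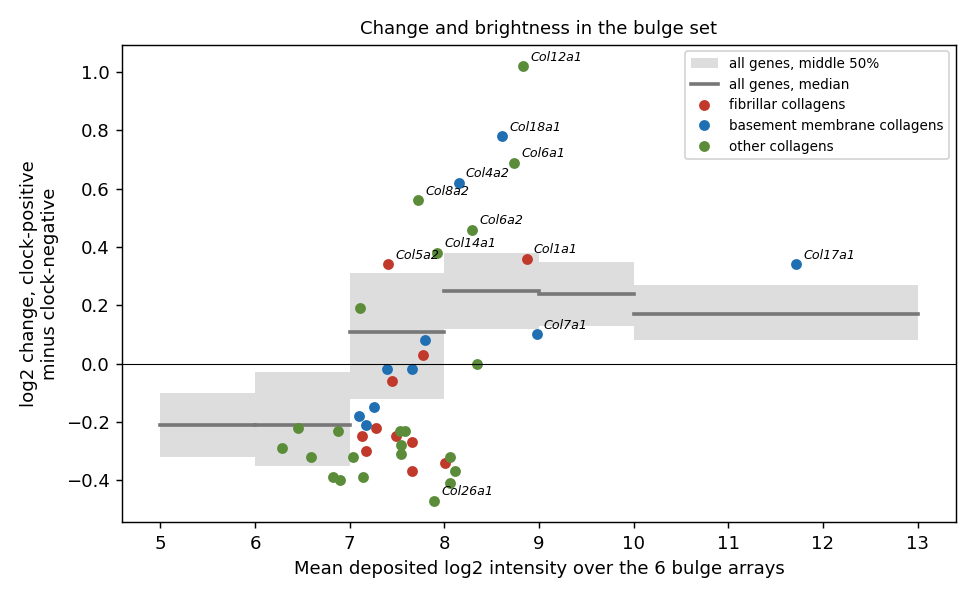
Log2 change (clock-positive minus clock-negative) of each collagen gene against its mean deposited log2 intensity over the 6 bulge arrays, coloured by class; grey boxes and lines give the middle 50% and the median of all genes in each band of intensity. Most collagens between 7 and 8 lie below the grey line of their band (their median is −0.22, that of all genes 0.11), while Col12a1, Col18a1, Col6a1 and Col4a2 lie above the grey boxes.

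The falls also rest on single arrays to a degree. Clock-negative sample 2 had the highest reading of its group in 36 of the 44 collagens, and clock-negative sample 1 the lowest in 32. Without clock-negative sample 2, or without clock-positive sample 1, 14 collagens were called lower in place of 23, each of them among the 23. The same counts over all genes were not made, so whether this dependence is particular to collagens was not tested. The 10 that rose were also called when any 1 sample was left out.

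**Figure D4:**
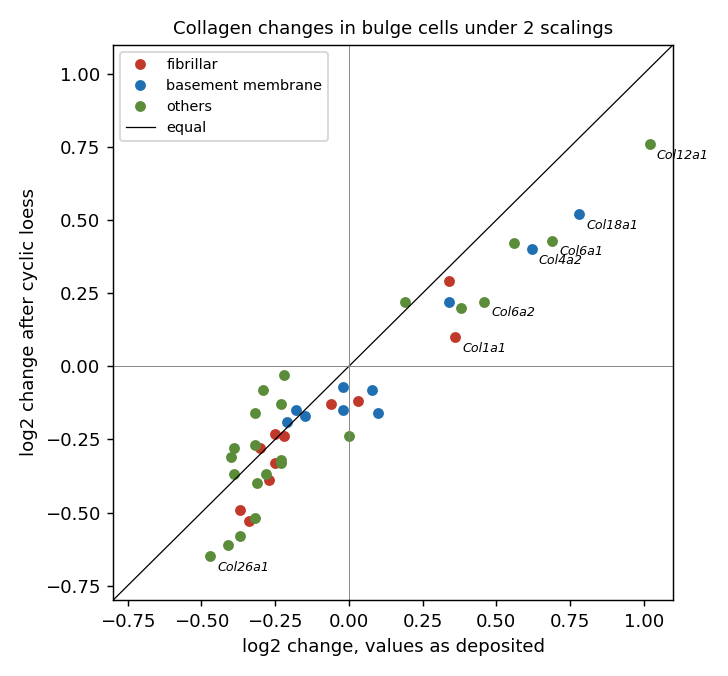
Log2 change of each collagen gene in bulge cells with the values as deposited (x axis) and after cyclic loess (y axis), coloured by class; the line marks equal values. Points above 0 on the x axis mostly lie below the line, Col1a1 moving from 0.36 to 0.10 and Col12a1 from 1.02 to 0.76, while Col26a1 lies at −0.47 and −0.65.

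The genes that make, bind and break down collagen were mostly higher in clock-positive cells. Of 71 such genes listed, 53 were tested, 31 rose and 8 fell, beside 45.2% and 18.3% of all genes, and their median change was 0.27. Under all 4 scalings 24 were called higher (45.3%) and 5 lower (9.43%), beside 16.9% and 11.2% of all genes. With no filter on dim genes 67 were tested, 32 rose and 12 fell, beside 31.5% and 27.9% of all genes, with a median of 0.15. In the list of chain modification, folding and export, 12 of 17 rose, 0 fell (0 of 17 also at an unadjusted p under 0.05) and the median was 0.33. P3h4, a partner of collagen lysyl hydroxylase, rose by 0.96 ± 0.07, Serpinh1, the collagen chaperone HSP47, by 0.92 ± 0.07, and the lysyl hydroxylases Plod1 and Plod3 by 0.70 and 0.69 (each ± 0.07). All 4 were called higher under the 4 scalings.

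In propeptide removal and cross-linking, 5 of 11 rose and 2 fell, with a median of −0.09 that became 0.07 after quantile normalization and 0.06 after cyclic loess. Tll1, a procollagen C-proteinase, rose by 1.07 ± 0.07, Pcolce2, an enhancer of that cleavage, by 0.91, and Pxdn, the peroxidase that cross-links type IV collagen, by 0.58. Adamts14, a procollagen N-proteinase, fell by 0.46. Of the genes of breakdown and its inhibitors, 6 were tested of 13, 4 rose and 2 fell. The balance turns with no filter on dim genes, where 4 of 13 were higher and 6 lower and the median went from 0.44 to −0.17. The genes added as lower there were Mmp3 (−0.51), Timp4 (−0.42), Mmp13 (−0.33), Ctsk (−0.31) and Fap (−0.17), while Mrc2 lost its call (adjusted p = 0.0506). The added genes are dim, with group means from 4.89 (Fap) to 6.17 (Ctsk). All genes under 6, and those between 6 and 7, had a median change of −0.21. Timp2, an inhibitor of matrix metalloproteinases, rose by 1.37 ± 0.06, the gelatinase Mmp2 by 0.94 and its activator Mmp14 by 0.61, while the gelatinase Mmp9 fell by 0.46.

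In the remaining lists, and in propeptide removal and cross-linking above, the shares called as deposited are near the 45.2% and 18.3% of all genes. Under both other scalings 4 of 8 receptors, 5 of 11 matrix partners and 4 of 11 genes of propeptide removal and cross-linking were higher. All genes stood at 18.9% and 20.5% higher there. Those lower numbered 1, 1 and 2, beside 19.5% and 20.2% of all genes. Of the collagen receptors 4 of 8 rose and 2 fell. The integrin chains Itga1, Itga2 and Itgb1, which pair as collagen receptors on cells, rose by 0.61, 0.43 and 0.41, and the receptor kinase Ddr1 by 0.51. Of the matrix partners 6 of 11 rose and 2 fell. Sparc, which binds collagen in the matrix and helps it assemble, rose by 0.91 ± 0.06, Aspn by 0.54 and Hspg2, the proteoglycan perlecan of basement membranes, by 0.51. Tnxb, a tenascin that binds collagen fibrils, fell by 0.39.

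Markers of other cells moved in both directions between the bulge groups, where 45.2% of all genes were called higher and 18.3% lower. Of 12 dermal fibroblast markers, 11 are on the array, 4 were tested and 7 were among the dimmest 30% of genes, Dcn, Lum, Dpt and Prrx1 included. Fbln1 rose by 0.80, while Pdgfra, Pdgfrb and Twist2 fell by 0.18, 0.26 and 0.23. These 3 lost their calls after quantile normalization (0.01, −0.07 and −0.13) and cyclic loess (0.01, −0.08 and −0.12), and the groups of Twist2 overlapped. The mean of the list lay between 6.0 and 6.13 in clock-positive and between 6.07 and 6.20 in clock-negative samples, so these ranges overlapped. Of 11 endothelial markers 9 rose, Pecam1 by 0.56 and Cdh5 by 0.63, with list means from 8.0 to 8.03 against 7.66 to 7.73. Under both other scalings 7 of the 11 were higher, beside 18.9% and 20.5% of all genes. Tie1 (0.01 and 0.03) and Egfl7 (0.00 in both) lost their calls. Of 6 smooth muscle and pericyte markers tested 3 rose, Myl9 by 1.54 and Cspg4 by 1.15, and Abcc9 fell by 0.40. Tagln (0.31) rose too, but lost its call under both other scalings (0.13 and 0.16). The list means overlapped, from 7.02 to 7.10 against 6.84 to 7.04. With no filter on dim genes 3 of 10 were higher and 3 lower, with a median of −0.08. Kcnj8 (−0.52) and Rgs5 (−0.27) were added as lower there. Of the Schwann cell markers 1 of 3 fell (Sox10), and of the dermal papilla markers Crabp1 rose and Corin and Hhip fell, of 4 tested. Corin (−0.20) and Hhip (0.00) lost their calls under both other scalings. All 6 bulge keratinocyte markers rose, Cd34, which was used in the sort, by 1.45 and Lgr5 by 1.34, with list means from 10.82 to 10.86 against 9.85 to 9.93. Of these, Krt15 (0.20) lost its call after quantile normalization (0.12, adjusted p = 0.0763). Of 5 basal keratinocyte markers only Itgb4 rose, by 0.44, and Krt5 and Krt14 had changes of 0.01 and −0.09. The part of these cells in the collagen changes was not tested.

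Between Bmal1 KO and WT basal IFE cells, the question was what the loss of the clock activator changes in the epidermis. No collagen passed the test: of 42 tested, 0 were higher and 0 lower in limma, beside 0.0788% and 0.115% of all genes. At an unadjusted p under 0.05, 1 was higher (Col6a1) and 2 were lower (Col12a1 and Col10a1), which is 7.14% of the collagens beside 7.96% of all genes. The median change was 0.01, beside −0.01 for all genes. Col5a2 and Col19a1 were too dim to be tested. The 3 KO values lay above the 3 WT values in 3 collagens (Col6a1, Col6a6 and Col5a1) and below them in 5 (Col12a1, Col10a1, Col16a1, Col17a1 and Col6a3), beside 4.11% and 8.56% of all genes.

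Col12a1 read 9.05, 9.29 and 9.12 in WT and 8.58, 8.34 and 8.32 in KO cells, 1.67-fold lower in KO. The groups lay apart, with a change of −0.74 ± 0.12 and an adjusted p of 0.0693 that missed the threshold. It passed after median centring (−0.70, adjusted p = 0.0302), quantile normalization (−0.71, adjusted p = 0.017) and cyclic loess (−0.71, adjusted p = 0.0176), and without WT sample 1 (−0.79, adjusted p = 0.0406). Lower calls made up 0.279%, 0.315% and 0.301% of all genes under those 3 scalings. Over all alternatives its adjusted p ran from 0.000679 to 0.514.

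Col10a1 read 8.98, 8.61 and 8.70 in WT and 8.37, 8.27 and 8.19 in KO cells, with a change of −0.49 ± 0.13 (adjusted p = 0.277). Col6a1 read 8.05, 8.80 and 8.61 in WT and 9.22, 8.99 and 9.09 in KO cells, with a change of 0.61 ± 0.19 (adjusted p = 0.367). In both genes the groups lay apart, and in Col6a1 the low WT sample 1 stands out: without it the change was 0.40 (adjusted p = 0.295). The partner of Col6a1, Col6a2, had a change of 0.04, and the change of Col6a1 exceeded it by 0.57 ± 0.27.

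The next collagens by p were Col16a1, Col28a1 and Col8a1. Col16a1 read 8.80, 8.99 and 8.91 in WT and 8.76, 8.71 and 8.71 in KO cells, with a change of −0.18 (adjusted p = 0.768). Col28a1 read 7.40, 7.14 and 7.23 against 7.28, 7.55 and 7.62, with a change of 0.23, and Col8a1 read 8.06, 7.79 and 7.98 against 8.42, 8.07 and 8.01, with a change of 0.22. In the last 2 the groups overlapped.

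**Figure D5:**
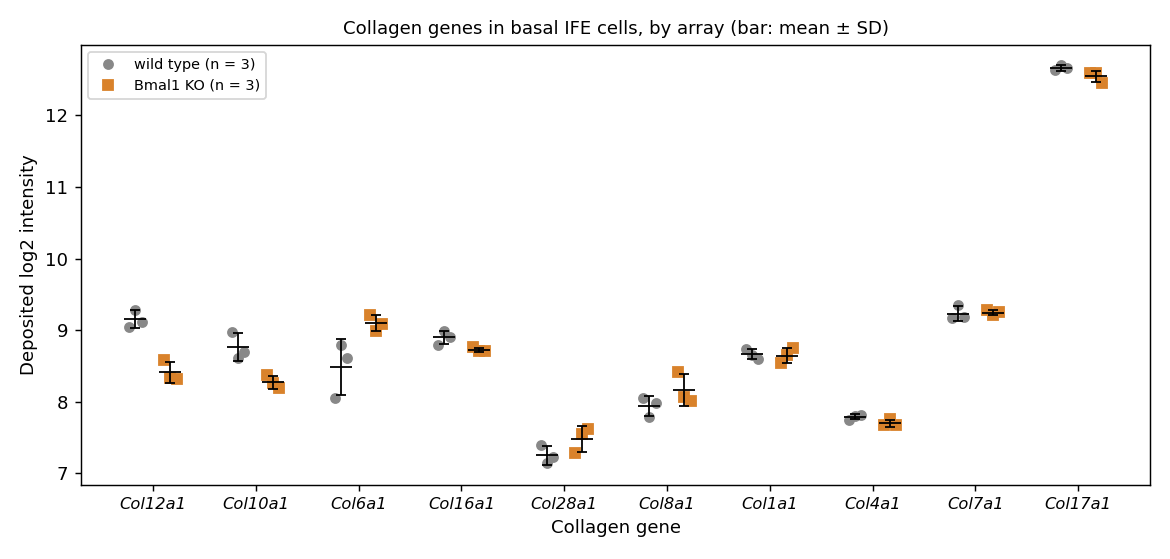
Deposited log2 intensity in basal IFE cells of the 6 collagen genes with the smallest p and of Col1a1, Col4a1, Col7a1 and Col17a1, with each array as a point and the mean ± SD of 3 samples as bars. WT (grey circles) and KO (orange squares) lie apart in Col12a1, Col10a1, Col6a1, Col16a1 and Col17a1, with Col6a1 lowest in WT sample 1 at 8.05.

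The basement membrane collagens of IFE cells had changes from −0.12 to 0.17. Col17a1 read 12.63, 12.71 and 12.66 in WT and 12.59, 12.59 and 12.46 in KO cells (−0.12 ± 0.10, adjusted p = 0.906), and Col7a1 read 9.17, 9.35 and 9.18 against 9.28, 9.21 and 9.25 (0.01 ± 0.10). Their 95% intervals ran from −0.34 to 0.10 and from −0.21 to 0.24. Col18a1 read 8.44, 8.63 and 8.48 against 8.80, 8.63 and 8.63, with a change of 0.17 ± 0.11 (adjusted p = 0.833).

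None of the 6 type IV genes passed the test. Col4a1 read 7.75, 7.80 and 7.82 in WT and 7.68, 7.76 and 7.67 in KO cells, and Col4a2 read 8.09, 8.31 and 8.21 against 8.11, 8.16 and 8.09. Col4a3 read 7.65, 7.73 and 7.62 against 7.68, 7.83 and 7.95, and Col4a4 read 7.55, 7.42 and 7.48 against 7.33, 7.43 and 7.55. In all 4 the groups overlapped, with changes of −0.09, −0.08, 0.15 and −0.05. Col4a5 read 8.67, 8.62 and 8.66 against 8.66, 8.60 and 8.58, and Col4a6 read 8.88, 8.80 and 8.82 against 8.95, 8.72 and 8.51, with changes of −0.04 and −0.11.

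The 10 fibrillar collagens tested had changes from −0.05 to 0.04. Col1a1 read 8.74, 8.66 and 8.60 in WT and 8.54, 8.65 and 8.75 in KO cells, Col1a2 read 7.99, 7.77 and 7.94 against 7.73, 7.91 and 8.17, and Col3a1 read 7.51, 7.38 and 7.38 against 7.34, 7.36 and 7.44. In all 3 the groups overlapped. The 95% interval of the change of Col1a1 ran from −0.26 to 0.22.

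Of the genes that make, bind and break down collagen, 45 were tested in IFE cells and 0 passed in limma; at an unadjusted p under 0.05, 5 were higher and 1 was lower, which is 13.3% of them beside 7.96% of all genes. The matrix metalloproteinases Mmp3 and Mmp14 had changes of 0.59 and 0.51 (adjusted p = 0.269 and 0.294), Sparc of 0.57 (0.264), Fn1, which encodes fibronectin, of 0.69 (0.397) and Loxl4, a cross-linking oxidase, of 0.40 (0.364). Mmp14 passed after quantile normalization (adjusted p = 0.0485) and cyclic loess (adjusted p = 0.0471), where 0.337% and 0.322% of all genes were higher. Among the markers of other cells 0 passed as deposited. The fibroblast list had means from 6.34 to 6.38 in WT and from 6.39 to 6.47 in KO samples, the smooth muscle and pericyte list from 7.18 to 7.23 and from 7.32 to 7.41, and the basal keratinocyte list from 12.90 to 12.93 and from 12.89 to 12.90. Of 6 smooth muscle and pericyte markers tested, 3 had a positive and 3 a negative change, with a median of 0.04. Acta2, smooth muscle actin, had the largest change of these, 1.07 (adjusted p = 0.0901), while Tagln had −0.13 and Kcnj8 −0.12. After median centring 1 of the 6 was called higher, beside 0.308% of all genes, and after quantile normalization or cyclic loess 0.

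Set side by side, Col12a1 was 1.02 higher with a bright clock reporter in bulge cells and had a change of −0.74 with Bmal1 deleted in IFE cells. Col6a1 was 0.69 higher in the first and had a change of 0.61 in the second. Col18a1 and Col4a2 had changes of 0.78 and 0.62 in bulge cells and of 0.17 and −0.08 in IFE cells. The 2 sets share no array, differ in tissue and age, and the difference between them was not tested.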

How the data were processed

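RNA of sorted cells was extracted with Trizol and amplified with a whole transcriptome kit, per the labels' protocols. The values the authors deposited are log2 intensities, and the submitters' processing notes name RMA; further settings are not given in the sources used here. Bulge columns hold 34760 probe sets, IFE columns 28853 and both 28101, so each set seems to have its own normalization. Of 35512 probe sets, 21789 carry 1 symbol, 1621 several and 12102 none; only the first were used.

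Members and lists were chosen with earlier results of these data known. Each gene took 1 probe set, preferring those measured on all 12 arrays and then the highest mean. Genes in the lowest 30% by their mean over a comparison's 6 arrays were left out, which left 13956. Each comparison was fitted on its own 6 arrays with limma 3.58.1 in R 4.3.3 (lmFit and eBayes, two-sided), with Benjamini-Hochberg adjustment over all genes tested and a threshold of 0.05. Values after ± are standard errors unless marked SD. Pairs of chains, chosen after their values were seen, were set against each other with an exact test, adjusted over 7 pairs. The smallest p this test can give is 0.1, so no pair could pass and it cannot decide. Every bulge pair stood at that value (adjusted p = 0.1), and in IFE cells adjusted p ran from 0.35 to 0.9. The differences between pairs are therefore given as descriptions. The script was tested on simulated data. Alternatives were other scalings, filters, variance models, all 12 arrays in 1 fit, the mean of all probe sets, a replicate block and leaving out each sample. Values per array are given for fixed type I, III, IV, VII, XVII and XVIII genes, for the 12 called collagens with the largest change in bulge cells, for the other collagens called higher there, and for the 6 with the smallest p in IFE cells. Lists give up to 4 genes by p and defining markers. Promoter windows are RefSeq's of GRCm38.p6. Protein sequences and the time of day of collection were not analysed here.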

Additional observations from a re-analysis of the deposited data

How the results depend on the processing

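In bulge cells, collagens called higher numbered 10 as deposited, 6 after quantile normalization and 10 to 11 with each sample left out. Those called lower numbered 23 as deposited, 12 with the lowest 50% of genes left out, where 31 collagens were tested, and 14 to 25 with each sample left out. Genes that make, bind or break down collagen called lower numbered 8 as deposited, 12 with no filter on dim genes, 2 with the filter on 50%, 5 after quantile normalization, 5 after cyclic loess and 5 to 10 with each sample left out. In IFE cells, collagens called higher were 0 as deposited and 1 with all 12 arrays in 1 fit, where 1.07% of all genes were higher and 1.84% lower. Collagens called lower were 0 as deposited, 1 after median centring, quantile normalization or cyclic loess, 2 with all 12 arrays in 1 fit and 0 to 1 with each sample left out (1 without WT sample 1). Genes that make, bind or break down collagen called higher were 0 as deposited, 1 with quantile or loess scaling, and 5 with all 12 arrays in 1 fit. The cause was not tested. No single collagen reversed a call in either comparison under the alternatives run. With the filter on 50%, 59.7% of all genes were higher and 7.42% lower in bulge cells, and with no filter 31.5% and 27.9%. Shares of all genes called with a sample left out were not computed.

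The deviations of same-numbered samples correlated with r of 0.24, 0.26 and −0.06 in the bulge set, where numbers 1 and 2 correlated best with their own number and 3 did not, and of −0.44, 0.04 and −0.52 in the IFE set. Not every pair was over 0.1, and the labels tie the numbers to nothing shared, so the samples were not treated as paired. With the replicate block, 11 collagens were higher and 24 lower in bulge cells, and 0 passed in IFE cells. The intervals of changes in IFE cells are not adjusted for the number of genes, so they are not limits of detection. Those of Col12a1 (−1.01 to −0.46) and Col10a1 (−0.78 to −0.20) left out 0. Neither gene passed in limma as deposited (adjusted p = 0.0693 and 0.277). With 3 arrays per group, an interval that left out 0 was thus not enough for a call in either gene. The lack of a call does not show the lack of a change.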
